A study of Saccharomyces cerevisiae with 176 samples.

Results

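Budding yeast answers a shortage of inorganic phosphate through the PHO pathway. The transcription factor Pho4, helped by Pho2, is kept out of action by the cyclin and kinase pair Pho80 and Pho85 while phosphate is plentiful. When phosphate is short, the inhibitor Pho81 blocks that kinase, and Pho4 turns on genes for phosphate transporters, secreted acid phosphatases and the enzymes of vacuolar polyphosphate. Described here are 10 genes linked to this response, not all of them turned on in it. They were taken by name from the 6692 genes of the deposited expression table. PHO84 (YML123C) and PHO89 (YBR296C) encode high-affinity phosphate transporters. PHO5 (YBR093C), PHO11 (YAR071W) and PHO12 (YHR215W) encode secreted acid phosphatases made in phosphate shortage, and PHO3 (YBR092C) the acid phosphatase made in phosphate-rich medium. PHO8 (YDR481C) encodes the vacuolar alkaline phosphatase, VTC3 (YPL019C) a subunit of the vacuolar polyphosphate polymerase, SPL2 (YHR136C) a negative regulator of low-affinity phosphate uptake, and PHM6 (YDR281C) a protein of unknown function.

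RNA was sequenced from cells of S288C background in several settings. In batch culture, aneuploid strains (cells with an unbalanced set of chromosomes, named A1 to A38) and the strain labelled 2N were grown overnight from colonies in rich YEPD medium with 2% glucose at 25 °C, diluted, and grown further. Experiments 1 to 3 (exp1 to exp3) held 36 libraries of 10 aneuploid strains and 8 libraries of 2N, exp4 held 18 libraries of 10 aneuploid strains, and exp5 and exp6 held 24 libraries each, of 12 and 8 aneuploid strains, with no 2N. In a chemostat, 9 aneuploid strains and 2N, with 2 libraries each, grew in phosphate-limited medium at a dilution rate of 0.17 volumes per hour until steady state. Aneuploid and euploid populations, 3 libraries each under the Tsai and the dilution protocol, were pools of colonies from the spores of triploid and diploid strains that carry pRS315-STE2pr-spHIS5, and were set beside 3 libraries of WT, the haploid strain A2050, in exponential growth. The same WT strain was sampled in YEPD every 2 h at 25 °C in a time course of 28 libraries. The labels do not say whether replicate libraries came from separate cultures, so p-values measure the spread between these libraries, and they do not say how the Tsai and the dilution protocol differ.

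The values are log2(TPM + 1), where TPM is the usual measure of transcript abundance per length, scaled to a fixed total in each library. The genes of the table made up 5.03% to 12.35% of that total in exp1 to exp4, 85.07% to 99.63% in the chemostat, the populations, exp5 and exp6, and 15.37% to 97.25% in the time course. Levels are therefore compared within a set, and between the chemostat, exp5 and exp6. Read depth is unknown, so counting error could not be given. Differences are on the log2(TPM + 1) scale with their standard error (SE), and a gene was called where limma's Benjamini-Hochberg adjusted p over all genes tested was under 0.05. In these bulk samples fewer cells that express a gene and less RNA per cell cannot be told apart.

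PHO11 and PHO12 are nearly the same gene at the ends of 2 chromosomes, I:225460-226863 and VIII:552099-553502, both on the plus strand of the R64 (sacCer3) genome. Their coding sequences, each 1404 bases in a single exon, differ at 4 positions (99.7% identical), so reads could be split between them only by estimation. In 45 of 176 libraries the 2 genes had TPM equal within 0.01, 39 of them among the 62 libraries of exp1 to exp4. In 40 of the 45 the equal values were above 0, and in the rest both genes were at 0. Their values are therefore uncertain one by one. PHO5 (II:429548-430951, minus strand) and PHO3 (II:427698-429101, minus strand) lie side by side and are 86.5% identical in coding sequence. None of the 10 coding regions overlaps another annotated gene.

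The DNA before the start codons sets PHO3 apart from the rest. The core of the Pho4 binding site, CACGTG, was searched with its variant CACGTT on both strands (AACGTG is the same variant read from the other strand) in the 600 bases before each start codon. CACGTG was present before 9 of the 10 genes, all except PHO3, and before 434 of 5999 genes of the genome (7.23%). The variant was present before 8 of 10, all except PHO3 and SPL2, and before 1127 of 5999 genes (18.8%). Below are the 210 bases that begin 450 bases before the start codon of 4 genes that carry matches in this stretch and of PHO3, which carries none. They come from the RefSeq R64 reference, read 5′ to 3′ on the strand of the gene, with both motifs in capitals. A match is a description of these letters and not evidence of binding.
PHO84, XIII:26041-26250, minus strand: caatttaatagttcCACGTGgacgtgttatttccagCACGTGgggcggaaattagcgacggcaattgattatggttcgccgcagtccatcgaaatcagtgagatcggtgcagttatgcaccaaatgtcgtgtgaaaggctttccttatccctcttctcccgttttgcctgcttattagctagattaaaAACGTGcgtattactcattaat
PHO5, II:431192-431401, minus strand: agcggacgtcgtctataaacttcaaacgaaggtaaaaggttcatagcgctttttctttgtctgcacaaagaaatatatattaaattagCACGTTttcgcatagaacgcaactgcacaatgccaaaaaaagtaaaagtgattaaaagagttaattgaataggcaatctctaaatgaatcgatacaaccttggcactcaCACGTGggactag
PHO12, VIII:551649-551858, plus strand: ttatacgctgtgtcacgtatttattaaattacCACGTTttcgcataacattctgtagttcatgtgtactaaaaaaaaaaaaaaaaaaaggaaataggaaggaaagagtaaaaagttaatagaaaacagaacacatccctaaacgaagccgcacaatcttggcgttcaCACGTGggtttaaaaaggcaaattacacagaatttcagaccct
VTC3, XVI:517259-517468, minus strand: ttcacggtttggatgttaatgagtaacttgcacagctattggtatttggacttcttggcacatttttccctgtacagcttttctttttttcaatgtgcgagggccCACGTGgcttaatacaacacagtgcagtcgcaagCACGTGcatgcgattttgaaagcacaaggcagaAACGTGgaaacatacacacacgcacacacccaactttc
PHO3, II:429342-429551, minus strand: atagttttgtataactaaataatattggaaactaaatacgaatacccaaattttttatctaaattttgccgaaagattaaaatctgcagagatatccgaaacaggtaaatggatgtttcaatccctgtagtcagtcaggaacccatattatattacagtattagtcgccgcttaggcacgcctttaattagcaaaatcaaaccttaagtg

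PHO84 had CACGTG at 436 and 414 bases before its start codon, VTC3 at 345 and 311, PHO5 at 253 and PHO12 at 283, counted to the first base of the match. SPL2 held 4 such sites, at 361, 147, 90 and 31 bases. The stretch printed for PHO84 reaches into the neighbouring gene YML122C, and that for PHO3 reaches the end of PHO5. Of 26 further genes of phosphate metabolism, 12 held CACGTG and 10 held the variant.

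For strains A24, A34 and A38, which were grown both in the chemostat and in rich medium in exp5, 8 of the 10 genes passed the filter of a mean of at least 2 in exp5 as well. Of these, 7 were higher in the chemostat and 1, PHO3, was lower. PHO89 and PHM6 passed only through the chemostat libraries and are given as levels, with no test. Over all 5585 genes tested, 62.1% were called higher and 21.8% lower. The median difference of the 8 genes was 7.25, and that of all genes was 0.54. The chemostat and exp5 libraries carry different codes in their titles. The labels do not say what the codes mean, and a batch that they may mark cannot be told apart from the medium in this comparison. Between the chemostat and exp6 libraries that share the code d204, which are of different strains, the 8 genes were called in the same directions, while 59.5% of 5507 genes were called higher there and 23.9% lower. After each library was centred on its own median, 2044 of all genes were called higher and 2621 lower, and the 8 genes kept their directions.

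PHO84 had 4916 and 4094 TPM in A24, 3762 and 4255 TPM in A34 and 3159 and 2987 TPM in A38 in the chemostat. In exp5 it had 69.6 and 76.4 TPM in A24, 4.02 and 4.01 TPM in A34 and 22.2 and 20.6 TPM in A38. The strains thus lay close together in the chemostat and far apart in rich medium, and no chemostat library came near an exp5 library. The log2 difference was 7.55 ± 0.08 (SE, adjusted p = 2.28e-18). PHO89, the sodium-coupled transporter, had between 897 and 2047 TPM in the 6 chemostat libraries and between 0.30 and 1.60 TPM in the 6 exp5 libraries. At such low exp5 levels the added 1 of the log2 scale sets the size of a fold change, and none is given.

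PHO5 showed the largest difference of the 8 genes. It had 22997 and 18324 TPM in A24, 11579 and 10695 TPM in A34 and 7735 and 4558 TPM in A38 in the chemostat, against 8.27 and 6.51 TPM, 3.48 and 2.68 TPM, and 4.02 and 3.33 TPM in the same strains in exp5. The difference was 11 ± 0.11 (SE, adjusted p = 2.28e-18). By mean TPM, PHO5 ranked 2 among 6692 genes in A24 in the chemostat and 4764 in A24 in exp5. The other acid phosphatases made in phosphate shortage followed, PHO11 at 8.06 ± 0.22 and PHO12 at 7.69 ± 0.18. At low exp5 levels the added 1 of the log2 scale bears on the size of these differences too, most for PHO11 in A38, at 1.95 and 1.86 TPM. PHO3, the acid phosphatase of phosphate-rich medium, went the other way by a small amount, -0.45 ± 0.06 (adjusted p = 9.2e-06). It had between 60.2 and 121 TPM in A24 and A34 in the chemostat, against between 137 and 152 TPM in exp5. In A38 PHO3 had 276 and 242 TPM in the chemostat and 248 and 242 TPM in exp5, so the direction did not hold there, and the difference for A38 alone was 0.08.

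The vacuolar and regulatory genes spanned a range. SPL2 differed by 6.96 ± 0.10, VTC3 by 4.05 ± 0.07 and PHO8 by 3.59 ± 0.09 (all called, largest adjusted p 2.39e-14). SPL2 had between 3.94 and 5.96 TPM in the 6 exp5 libraries, where the added 1 of the log2 scale also bears on the size. PHM6 had between 1139 and 2846 TPM in the 6 chemostat libraries and between 1.16 and 4.51 TPM in the 6 exp5 libraries. VTC3 had between 267 and 492 TPM in the 6 chemostat libraries and between 11.5 and 40.8 TPM in the 6 exp5 libraries. PHO8 had between 347 and 565 TPM in the chemostat libraries, against between 23.1 and 52.3 TPM in exp5. Together the 10 genes held between 1.03% and 4.08% of all gene TPM over the 20 chemostat libraries, against between 0.0191% and 0.0398% over the 24 libraries of exp5 and between 0.025% and 0.0427% over the 24 of exp6.

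**Figure D1:**
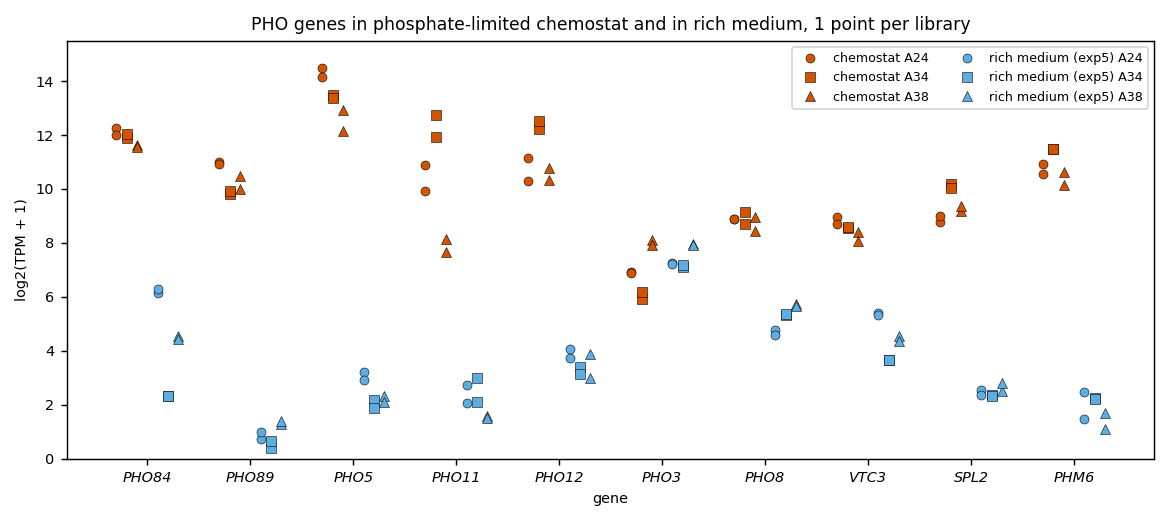
Expression, as log2(TPM + 1) on the vertical axis, of the 10 genes in strains A24, A34 and A38. Each point is a library; orange points on the left of each gene are chemostat libraries, and blue points on the right are rich medium (exp5) libraries, with the marker shape giving the strain. Of the 8 genes tested, 7 have all chemostat points above all rich medium points, as do 38.4% of all genes, and PHO3 has the 2 sets close together. PHO89 and PHM6 also have all chemostat points above, but passed the filter only through the chemostat.

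Over all genes, 62.1% were called higher in the chemostat than in exp5 and 21.8% lower. Of the 24 further genes of phosphate metabolism that passed the filter in exp5 as well, 20 were higher, 1 was lower and 3 were not called. Their median was 1.80. Differences above 4 were those of PHM8, a nucleotide phosphatase (5.84 ± 0.11), and GDE1, a glycerophosphodiesterase (4.04 ± 0.08). The regulators differed by less: PHO81, the kinase inhibitor, by 3.17 ± 0.08 and PHO4, the transcription factor, by 1.79 ± 0.09.

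Within the chemostat, 8 of the 10 genes were lower in the aneuploid strains than in 2N, and none was higher. Over all 5674 genes tested, 13.1% were called lower and 2.89% higher. The median difference of the 10 genes was -0.84, against -0.17 over all genes. Of all genes 164 were higher and 743 lower. After each library was centred on its median, 290 were higher and 326 lower (227 and 456 after rescaling to the full TPM total, 282 and 282 with each chromosome centred), and 5 of the 10 genes (PHO11, PHO12, VTC3, SPL2 and PHM6) were called lower. The comparison rests on 2 libraries of 2N. Without the first of them 2 genes were called, PHO11 and PHO12, and without the second 4, those and SPL2 and PHM6. When the strains were taken as a random sample of aneuploid strains (strain as a random block), none of the 10 passed in limma (adjusted p between 0.925 and 0.998, 2 of 10 at an unadjusted p under 0.05), so the difference describes these 9 strains.

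Among the transporters, PHO84 lay between 11.45 and 12.37, with a median of 11.82, in the 18 aneuploid libraries and at 12.53 and 12.46 in the 2 libraries of 2N, on the log2(TPM + 1) scale. The groups did not overlap, and the difference was -0.65 ± 0.17 (SE, adjusted p = 0.0194). PHO89 lay between 8.44 and 11, with a median of 9.97, in the aneuploid libraries and at 10.80 and 10.50 in 2N. The groups overlapped, and the difference of -0.65 ± 0.23 did not pass (adjusted p = 0.0658).

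The secreted acid phosphatases differed more. PHO11 lay between 7.61 and 12.75, with a median of 9.34, in the aneuploid libraries and at 11.78 and 11.77 in 2N, a difference of -2.0 ± 0.25 (adjusted p = 0.000336). PHO12 lay between 8.06 and 12.53, with a median of 10.31, in the aneuploid libraries and at 11.82 and 11.76 in 2N, a difference of -1.53 ± 0.24 (adjusted p = 0.00116). Both spanned more than 4 log2 units among aneuploid libraries and overlapped with 2N. PHO5 lay between 11.09 and 14.49, with a median of 13.08, in the aneuploid libraries and at 13.62 and 13.92 in 2N, a difference of -0.83 ± 0.21 (adjusted p = 0.0186). PHO3 differed by 0.32 ± 0.29 and was not called (adjusted p = 0.503).

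SPL2, PHM6 and PHO8 were lower in every aneuploid library than in either library of 2N. SPL2 lay between 8.21 and 10.19, with a median of 9.21, in the aneuploid libraries and at 10.39 and 10.20 in 2N, a difference of -1.10 ± 0.18 (adjusted p = 0.00188). PHM6 lay between 8.75 and 11.48, with a median of 10.64, in the aneuploid libraries and at 12.14 and 11.59 in 2N, a difference of -1.36 ± 0.28 (adjusted p = 0.00633). PHO8 differed by -0.73 ± 0.22 (adjusted p = 0.035), and VTC3, whose groups overlapped, by -0.86 ± 0.18 (adjusted p = 0.00737). Of the 10 genes, 4 had every aneuploid library below both libraries of 2N, as did 4.64% of all genes. With every library's TPM rescaled to the full TPM total these were 2 of the 10 genes and 3.07% of all genes.

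The aneuploid strains were not alike. Tested strain by strain against 2N, 44 of the 90 pairs of gene and strain were called, 1 of them higher, while over all genes 11.6% of pairs were called lower and 4.22% higher, or 5924 and 2153 pairs. Over all genes, 3328 pairs were lower and 3315 higher after centring on library medians, 4242 and 2854 after rescaling, and 2433 and 2539 with each chromosome centred. SPL2 was lower in 8 of 9 strains, all except A34, and by the most in A37 (-2.02 ± 0.24). PHO11 and PHO12 were each lower in 6 of 9 strains, by -4.12 ± 0.33 and -3.55 ± 0.32 in A21. In A34 the same genes differed by 0.57 ± 0.33 and 0.59 ± 0.32, and in A22 by -0.14 ± 0.33 and 0.08 ± 0.32, with none of these called. PHM6 and VTC3 were lower in 5 strains each, PHO5 in 4, and PHO84, PHO89 and PHO8 in 3 each. PHO3 was higher in A38 (1.58 ± 0.40, adjusted p = 0.0155). Without the first or the second library of 2N, 23 or 24 pairs were called.

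PHO5 and PHO11 did not follow the same strains. In A37 PHO5 differed from 2N by -0.14 ± 0.28 and PHO11 by -2.43 ± 0.33. In A24 PHO5 differed by 0.56 ± 0.28, not called, and PHO11 by -1.36 ± 0.33 (adjusted p = 0.0148). In A20 PHO5 was lower, at -2.38 ± 0.28 and PHO11 at -3.08 ± 0.33. A20, A21, A23 and 2N carry the code d204 in their titles, and the other strains d236. PHO5 lay between 11.09 and 12.50 in the aneuploid libraries of d204 and between 12.15 and 14.49 in those of d236. For the d236 strains, a batch that the codes may mark cannot be told apart from strain, here or in the differences by strain above. PHO11 and PHO12, which share nearly all their sequence, parted in A38, with at most 284 TPM of PHO11 and 1761 and 1297 TPM of PHO12. There PHO11 differed from 2N by -3.86 ± 0.33 and PHO12 by -1.23 ± 0.32. A38 also had less PHO11 than PHO12 in rich medium, 1.95 and 1.86 TPM against 13.7 and 6.99 TPM in exp5. By mean TPM every other exp5 strain except A26 had less PHO11 than PHO12 too, so that order was not particular to A38.

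**Figure D2:**
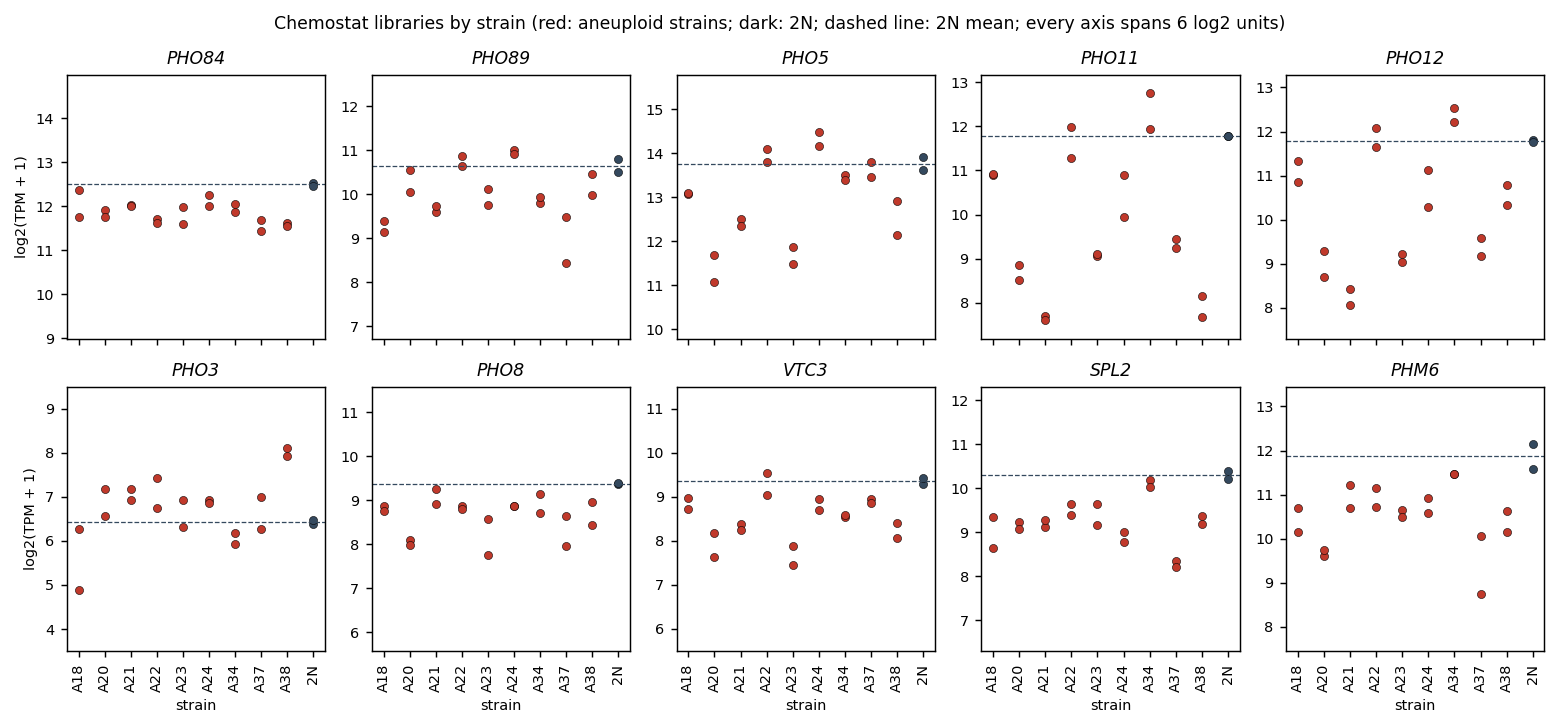
Expression of each gene in the chemostat, as log2(TPM + 1) on the vertical axis, by strain. Each point is a library, red for the 9 aneuploid strains and dark for 2N at the right; the dashed line is the 2N mean, and every vertical axis spans 6 units. PHO11 and PHO12 spread over more than 4 units between strains, and PHO84 stays within a narrow band below 2N.

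A test among the 9 aneuploid strains alone, which uses no 2N library, called 8 of the 10 genes, against 53.4% of all genes. It spans the codes d204 and d236, and a batch that they may mark was not separated from strain. The strain means spanned 4.70 for PHO11 (adjusted p = 7.16e-06), 4.14 for PHO12 (1.69e-05), 2.94 for PHO5 (9.34e-05) and 2.00 for PHO89 (0.00285). They spanned 0.56 for PHO84, which was not called (adjusted p = 0.267), and 1.04 for PHO8, not called either (adjusted p = 0.0657).

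The chromosomes that carry these genes moved too. In A21, the median gene of chromosome I, where PHO11 lies, differed from 2N by -0.31 and that of chromosome VIII, where PHO12 and SPL2 lie, by -0.34, relative to all nuclear genes. In A34 the same medians were 0.30 and 0.46. In A20 chromosome XIII, which carries PHO84, had a median of 0.33, while PHO84 itself differed by -0.67. In A24 and A37 chromosome II, which carries PHO5, PHO3 and PHO89, had medians of 0.42 and 0.37. With each chromosome centred on its median, 4 of the 10 genes were still called lower (PHO11, PHO12, SPL2 and PHM6). The share of these shifts in the strain differences was not tested.

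Markers of mating type moved with the strains as well. The summed TPM of 5 alpha-cell genes lay between 3600 and 12656 in the 8 libraries of A18, A21, A22 and A38, between 59.6 and 70.7 in A23, between 37.5 and 58.8 in A20, A24, A34 and A37, and between 63.2 and 84.0 in 2N. The summed TPM of 5 a-cell genes lay between 4059 and 5408 in A23, between 22.9 and 209 in the other 8 aneuploid strains, and between 164 and 246 in 2N. No marker was at 0 in all libraries of a strain group. The part of mating type in the PHO values was not tested. The libraries of 2N, A20, A21 and A23 also carry the code d204 in their titles and the others d236. Within d204, 7 of the 10 genes were called lower, against 7.75% of all genes lower and 1.69% higher, with PHO11 at -3.30 and PHO12 at -3.0, and PHO84, PHO89 and PHO3 were not. The titles of the 2 A24 libraries share part of a code whose meaning the labels do not give. Some titles of other d236 strains share such a part with another strain. Whether the 2 A24 libraries came from separate cultures is unknown, and the strain field of the second names A25.

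Of the 26 further genes, 9 were lower and 1 was higher in the aneuploid strains, against 13.1% of all genes lower and 2.89% higher. The median of the further genes was -0.47. VTC5, an accessory subunit of the polyphosphate polymerase, differed by -1.34 ± 0.23, PPN2, a polyphosphatase, by -1.18 ± 0.17, and PHO87, a low-affinity transporter, by -1.13 ± 0.19. PHM7 was the one that was higher (1.25 ± 0.36). PHO4 differed by -0.70 ± 0.16 (adjusted p = 0.0113) and PHO81 by -0.50 ± 0.15 (adjusted p = 0.036).

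In rich medium, 3 of the 4 testable genes differed between aneuploid strains and 2N. In exp1 to exp3 only PHO84, PHO3, PHO8 and VTC3 passed the filter of a mean of at least 2 on the log2 scale, and the other 6 were too low to test. PHO84 and VTC3 were lower, PHO3 was higher, and PHO8 was not called, while 10.0% of 3152 genes tested were called higher and 4.19% lower. The median of the 4 genes was -0.50, against 0.05 for all genes. Of all genes 316 were higher and 132 lower. Centred on library medians 262 were higher and 285 lower, with each chromosome centred 194 and 151, and the 3 calls stood after either. With strain as a random block none of the 4 passed in limma (adjusted p between 0.736 and 0.996, 3 of 4 at an unadjusted p under 0.05).

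PHO84 lay between 2.65 and 5.41, with a median of 3.90, in 36 aneuploid libraries and between 4.47 and 6.31, with a median of 5.09, in 8 libraries of 2N. The groups overlapped, and the difference with experiment in the model was -1.06 ± 0.15 (SE, adjusted p = 2.18e-06). In exp1 the first 2 libraries of 2N had 6.31 and 6.30 and the other 2 had 5.03 and 5.04. VTC3 lay between 1.62 and 4.07, with a median of 2.62, in aneuploid libraries and between 3.36 and 3.92, with a median of 3.62, in 2N (-0.81 ± 0.12, adjusted p = 6.96e-06). PHO3 lay between 2.49 and 6.32, with a median of 4.92, in aneuploid libraries and between 3.39 and 3.87, with a median of 3.62, in 2N (0.93 ± 0.09, adjusted p = 3.95e-10). PHO8 differed by -0.19 ± 0.16 (adjusted p = 0.478).

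Within single experiments, PHO84 differed by -1.34 in exp1, -1.04 in exp2 and -0.93 in exp3, and PHO3 by 0.97, 1.36 and 1.34, all called. VTC3 differed by -1.10 in exp1, which was called, and by -1.14 in exp2 (adjusted p = 0.0518) and -0.60 in exp3 (adjusted p = 0.124). PHO8 was lower in exp1 (-0.84, adjusted p = 0.0161) and differed by 0.23 and 0.17 in exp2 and exp3, not called. The 5 alpha-cell genes summed to between 0.62 and 587 TPM in the aneuploid libraries and to between 2.04 and 15.9 TPM in 2N, and the a-cell genes to between 0 and 352 TPM and between 0.32 and 9.89 TPM, with 2 of the a-cell genes at 0 in every library of 2N. Their part was not tested.

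Strain by strain, 22 of 40 pairs were called, against 8.44% of all pairs called higher and 4.93% lower, or 2661 and 1554 pairs. After rescaling, 1979 of all pairs were higher and 2028 lower, and after centring on library medians 2259 and 2466. PHO84 was lower in 7 of 10 strains, by -2.02 ± 0.31 in A27, -1.91 ± 0.20 in A23, -1.52 ± 0.23 in A22 and -1.44 ± 0.23 in A19. In A25 it differed by 0.56 ± 0.31 and was not called. Chromosome XIII, where PHO84 lies, had a median above 2N by 0.36 in A27, by 0.29, 0.25 and 0.23 in A23 in the 3 experiments, and by 0.51 in A1, and a median of -0.32 and -0.36 in A22. In A1 PHO84 differed by -0.59 ± 0.31 and was not called. The part of the chromosomes in these differences was not tested. VTC3 was lower in 6 strains, and PHO3 was higher in 7, by up to 2.41 ± 0.13 in A22 and 2.22 ± 0.11 in A21, and lower in A35 (-0.81 ± 0.17, adjusted p = 0.00381). In exp4, which held no 2N, PHO84 was lowest in A27 (1.99 and 2.69) and highest in A24 (5.56 and 5.49).

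Of the further genes, 18 passed the filter and 3 were lower, with none higher, against 4.19% of all genes lower and 10.0% higher. All 3 encode other subunits of the polyphosphate polymerase complex, VTC4 (-0.54 ± 0.15), VTC1 (-0.51 ± 0.13) and VTC2 (-0.38 ± 0.12). PHO81 differed by -0.05 ± 0.15 and was not called.

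The aneuploid difference itself was compared between the chemostat and rich medium over the 5 strains grown in both (A18, A20, A21, A22 and A23). PHO84, PHO3, PHO8 and VTC3 passed the filter in exp1 to exp3 as well. Of these 4, PHO3 was called, with a difference more negative in the chemostat at -1.09 ± 0.25 (adjusted p = 0.00698). PHO84 (0.71 ± 0.30, adjusted p = 0.27), PHO8 (-0.43 ± 0.32) and VTC3 (0.01 ± 0.25) were not called. Over 5064 genes 2.17% were called lower and 0.494% higher. After centring, 45 of all genes were higher and 58 lower, against 25 and 110 before, and PHO3 was still called. It was not called when either library of 2N in the chemostat was left out (adjusted p = 0.0889 and 0.166 in limma, with 2 of the 10 genes at an unadjusted p under 0.05 each time). The other 6 genes entered the fit only through their chemostat levels. Among them PHO11 had a value of -1.79, but its median in exp1 to exp3 was 0.46 in aneuploid libraries and 0.70 in 2N, so this value largely restates the chemostat difference and cannot show that the aneuploid difference depends on the medium. The libraries of exp1 to exp3 and of the chemostat were made with different kits, Illumina Truseq and KAPA per the labels, so the kit and the medium cannot be told apart.

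In exp5 and exp6, where all strains are aneuploid, PHO84 spanned the widest range of the 8 PHO genes that could be tested. PHO89 and PHM6 did not pass the filter, and the other 8 genes differed among strains in both experiments. That was also true of 98.4% of all genes in exp5 and 94.7% in exp6, so the calls do not set the 8 genes apart. The range of strain means was 5.15 for PHO84 in exp5 (adjusted p = 5.38e-17) and 5.80 in exp6 (adjusted p = 2.02e-17), while the median gene spanned 0.995 and 1.02. The next widest was PHO3 in exp5 (2.49) and SPL2 in exp6 (2.13), and the medians over the 8 genes were 1.72 and 1.51.

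PHO84 was highest in A30, at 6.52 and 6.63 in exp5 and 6.86, 6.84 and 7.16 in exp6. It was lowest in A32 in exp5, at 1.3 and 1.55, and in A26 in exp6, at 1.44, 0.88 and 1.14. In exp5 A26 had 1.58 and 1.69, and A34 had 2.33 and 2.32, while every library of the other 9 strains had at least 4.37. In exp6 A32 had 2.41, 2.38 and 2.45, and A34 had 3.52, 3.68 and 3.77, the last next to A38 at 3.77, 4.17 and 3.91. The order of A26 and A32 differed between the 2 experiments.

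VTC3 followed a similar order of strains. Its 3 lowest strains in exp5 were the same 3, A32 (3.55 and 3.57), A34 (3.64 and 3.66) and A26 (4.13 and 3.97), and its highest was A30 (5.55 and 5.74). Over the 12 strain means of exp5 the Pearson r of PHO84 and VTC3 was 0.93 and Spearman's rho 0.81, and over the 8 strain means of exp6 they were 0.93 and 0.98. These are descriptions, since the strains of a set share their preparation. PHO8 was highest in A32 and A34 in exp6, between 6.27 and 6.51. In exp5 it was highest in A38 (5.74 and 5.68), above A32 (5.33 and 5.35) and A34 (5.34 and 5.37). PHO8 lies on chromosome IV, whose median gene in exp6 was 0.40 in A32 and 0.39 in A34 above the mean of the strains, relative to all nuclear genes. The part of the chromosome in these values was not tested. A30 also had the most PHO89 in exp6, 4.07, 3.63 and 4.36, where every other library had at most 2.06. PHO81 spanned 1.28 in exp5 and 1.78 in exp6. Of the further genes tested 24 of 24 and 23 of 24 were called, against 98.4% and 94.7% of all genes. Alpha-cell markers summed to between 5212 and 9242 TPM in A26, A30 and A38 and to between 14.5 and 53.5 TPM in the others. A-cell markers summed to between 1086 and 1943 TPM in A28 and to at most 63.5 TPM in every other strain. The part of mating type in these values was not tested.

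**Figure D3:**
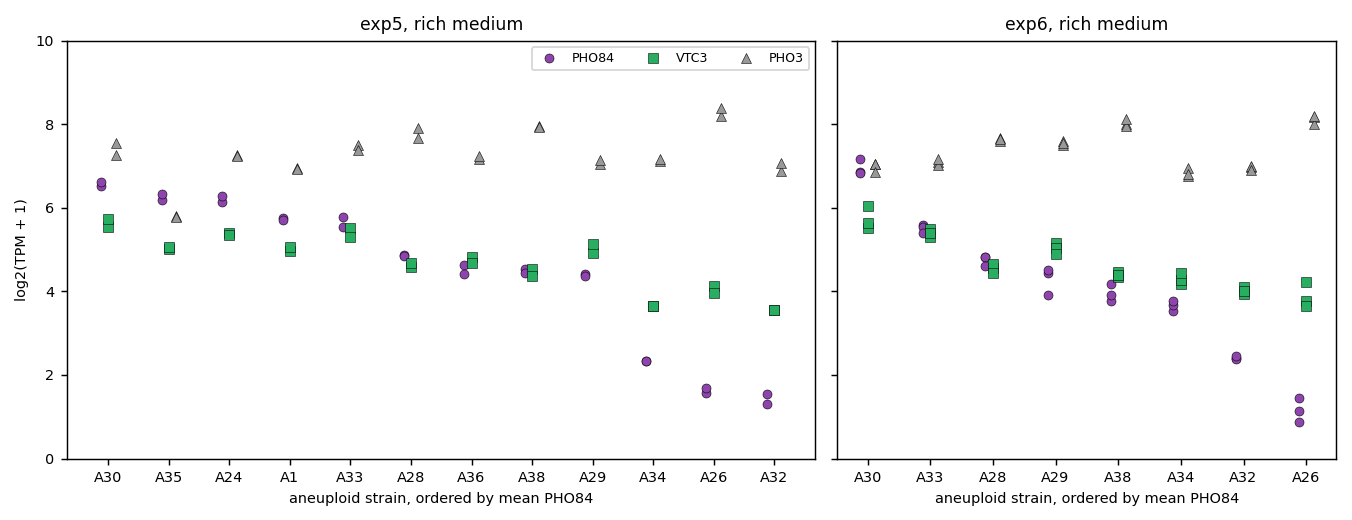
PHO84, VTC3 and PHO3, as log2(TPM + 1) on the vertical axis, in the aneuploid strains of exp5 (left) and exp6 (right), ordered by mean PHO84. Each point is a library, with purple circles for PHO84, green squares for VTC3 and grey triangles for PHO3. PHO84 runs down from A30 to A26 and A32 over more than 5 units, VTC3 runs down with it by about 2 units, and PHO3 has no such order.

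In the populations, all 10 genes were lower in aneuploid than in euploid populations under the dilution protocol. Over all 5699 genes, 15.1% were called lower there and 60.9% higher. The median difference of the 10 genes was -1.61, against 0.27 over all genes. After centring on library medians 1901 of all genes were higher and 1816 lower, and all 10 calls stood. No library of the aneuploid population reached any of the euploid population for any of the 10 genes, as was true of 15.7% of all genes in the same direction.

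PHO5 had 30.4, 30.7 and 32.5 TPM in the dilution aneuploid population, against 132, 139 and 153 TPM in the dilution euploid population (-2.14 ± 0.06, adjusted p = 4.81e-15). PHO11 differed by -2.16 ± 0.10 and PHO12 by -1.78 ± 0.09. PHO89 had 67.2, 69.6 and 68.3 TPM in the aneuploid population and 234, 231 and 232 TPM in the euploid population (-1.75 ± 0.09). PHO84 had 177, 170 and 153 TPM in the aneuploid population, against 416, 354 and 430 TPM in the euploid population (-1.26 ± 0.07, adjusted p = 4.98e-11). PHM6 differed by -1.77 ± 0.17, VTC3 by -1.48 ± 0.05, SPL2 by -1.35 ± 0.07, PHO3 by -0.79 ± 0.04 and PHO8 by -0.29 ± 0.04.

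Under the Tsai protocol the genes split, with 4 higher and 6 lower in the aneuploid population, while 41.0% of all genes were higher and 34.7% lower. The median of the 10 genes was -0.25, against 0.05 over all genes. PHO3 had the largest positive difference, with 200.1, 196 and 191 TPM in the Tsai aneuploid population and 76.6, 77.1 and 76.2 TPM in the Tsai euploid population (1.34 ± 0.04, adjusted p = 2.04e-14). PHO11 and PHO12 were higher by 0.96 ± 0.10 and 0.85 ± 0.09, and PHO89 by 0.46 ± 0.09. SPL2 had 36.6, 36.0 and 37.3 TPM in the aneuploid population, against 104, 102 and 106 TPM in the euploid population (-1.48 ± 0.07). PHM6 differed by -0.94 ± 0.17, VTC3 by -0.43 ± 0.05, PHO84 by -0.39 ± 0.07, PHO8 by -0.32 ± 0.04 and PHO5 by -0.18 ± 0.06.

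The difference between the protocols was itself tested. The aneuploid difference was more positive under the Tsai than under the dilution protocol for 8 of 10 genes, against 24.7% of all genes, and more negative for none, against 50.4%. It was largest for PHO11 (3.13 ± 0.14, adjusted p = 2.11e-12) and PHO12 (2.63 ± 0.12). SPL2 (-0.14 ± 0.10, adjusted p = 0.217) and PHO8 (-0.03 ± 0.06, adjusted p = 0.655) were not called. The median of the 10 genes was 1.5 and that of all genes -0.26, and after centring 1878 of all genes were more positive and 2281 more negative.

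**Figure D4:**
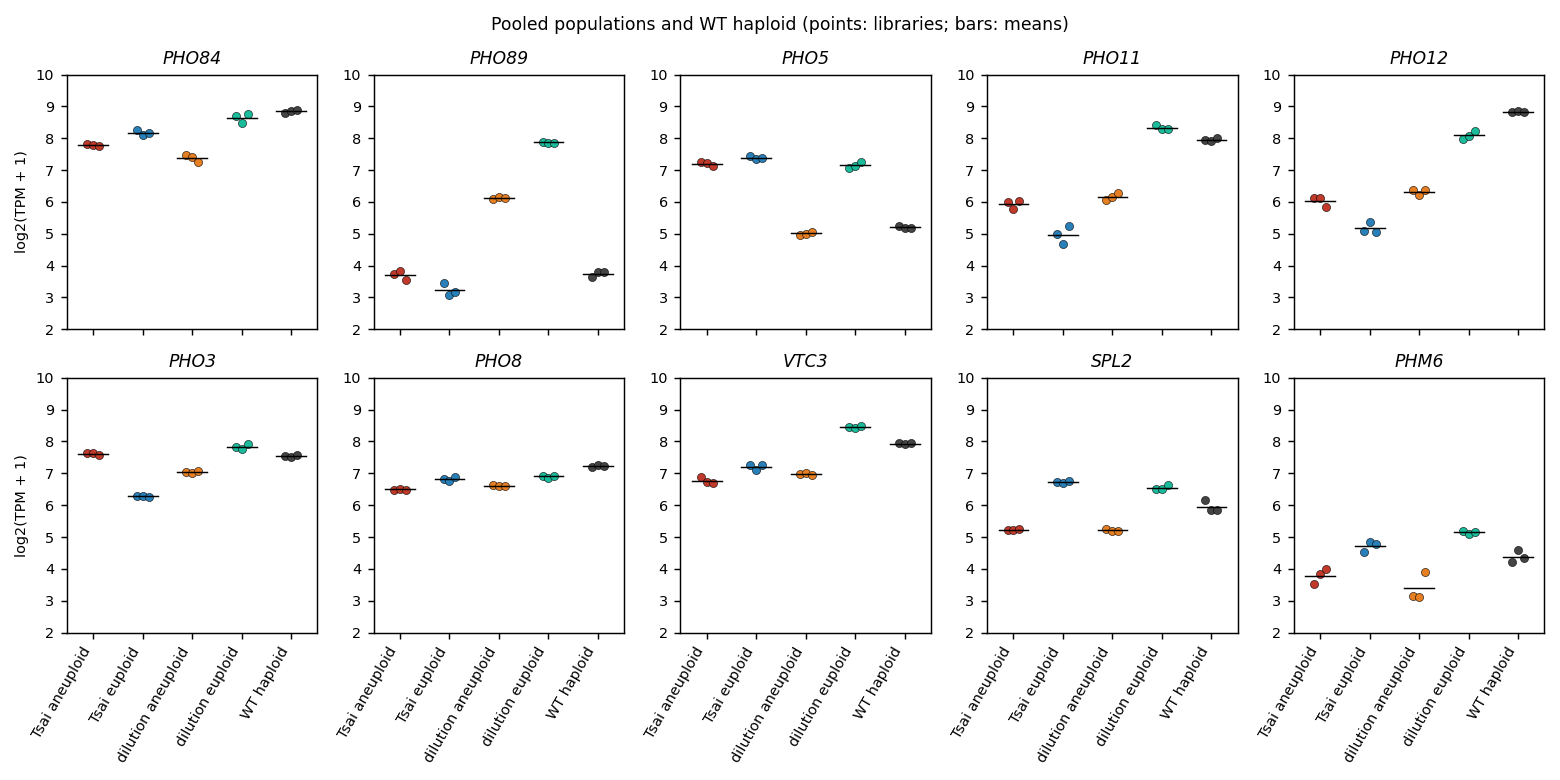
Expression of the 10 genes in the pooled populations and in WT, as log2(TPM + 1) on the vertical axis. Each point is a library and each bar a group mean, with, from left to right, the Tsai aneuploid, Tsai euploid, dilution aneuploid and dilution euploid populations and the WT haploid strain. Under the dilution protocol every gene is lower in the aneuploid population, and under the Tsai protocol PHO3, PHO11, PHO12 and PHO89 are higher in it.

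The euploid populations also differed from WT in these genes. Under the dilution protocol 7 were higher and 3 lower than in WT, while 29% of all genes were higher and 42.3% lower. The median of the 10 genes was 0.45 and that of all genes -0.08. PHO89 stood out at 234, 231 and 232 TPM in the dilution euploid population, against 11.5, 12.8 and 12.8 TPM in WT (4.13 ± 0.09, adjusted p = 4.57e-17). PHO5 was higher by 1.95 ± 0.06, PHM6 by 0.78 ± 0.17, SPL2 by 0.59 ± 0.07 and VTC3 by 0.52 ± 0.05. PHO11 differed by 0.37 ± 0.10, PHO3 by 0.29 ± 0.04, PHO84 by -0.20 ± 0.07, PHO8 by -0.32 ± 0.04 and PHO12 by -0.75 ± 0.09, all called.

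Under the Tsai protocol 2 genes were higher in the euploid population than in WT and 7 lower, while 43.9% of all genes were higher and 40.6% lower. For the 10 genes the median was -0.59, against 0.04 over all genes. PHO12 had 33.3, 40.1 and 32 TPM in the Tsai euploid population, against 455, 460 and 456 TPM in WT (-3.67 ± 0.09, adjusted p = 5.16e-17), and PHO11 was lower, at -2.99 ± 0.10. PHO5, in the same gene family, had 171, 163 and 165 TPM in the Tsai euploid population and 37, 35 and 35.5 TPM in WT (2.18 ± 0.06, adjusted p = 1.42e-16). SPL2 was higher by 0.76 ± 0.07. PHO3 was lower, at -1.27 ± 0.04, VTC3 at -0.73 ± 0.05, PHO84 at -0.67 ± 0.07, PHO89 at -0.50 ± 0.09 and PHO8 at -0.40 ± 0.04. PHM6 was not called (0.35 ± 0.17, adjusted p = 0.0694). These comparisons share the euploid libraries with those above.

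The populations also differed in mating-type markers. Alpha-cell genes summed to between 3927 and 4043 TPM in the Tsai aneuploid, 8146 and 8759 in the Tsai euploid, 3632 and 3915 in the dilution aneuploid and 7302 and 7501 in the dilution euploid population, and to between 46.2 and 48.6 TPM in WT. Sums of a-cell genes lay between 5523 and 6608, 7327 and 7824, 4270 and 4740, 5421 and 5780, and 2882 and 2943 TPM in the same order. Their part in the PHO differences was not tested.

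Of the further genes, 7 were higher and 13 lower in the dilution aneuploid population, with a median of -0.13. In the Tsai aneuploid population 7 were higher and 12 lower, with a median of -0.03. Over all genes 60.9% were higher and 15.1% lower under the dilution protocol, and 41.0% and 34.7% under the Tsai protocol. Under the dilution protocol PHM7 (1.17 ± 0.15), PHO87 (1.17 ± 0.07) and GIT1 (1.07 ± 0.17) were higher and VTC4 (-0.93 ± 0.05) was lower. Under the Tsai protocol PHO90, a low-affinity transporter, was higher by 0.90 ± 0.06, and DDP1, an inositol pyrophosphate phosphatase, was lower, at -0.70 ± 0.06. PHO81 was lower in both, at -0.51 ± 0.07 under the dilution and -0.56 ± 0.07 under the Tsai protocol. Against WT, the transcription factor gene PHO4 was lower, at -1.34 ± 0.09 in the dilution euploid population and at -0.50 ± 0.09 in the Tsai euploid population, where 11 further genes were higher and 8 lower under the dilution protocol and 11 and 12 under the Tsai protocol.

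In the WT time course, 9 of 10 genes differed between some of the 14 times, as did 80.3% of all genes. The fits treat the 28 libraries as independent, though libraries of successive times may be repeated samples of the same cultures. PHO8 was not called on the deposited values (adjusted p = 0.897) and was called after the TPM of each library was rescaled to the full TPM total (adjusted p = 2.42e-10). The genes of the table made up 59.0% to 97.2% of each library's fixed total in the 18 libraries up to 16 h and 15.4% to 80.6% in the 10 libraries from 18 h on. The part of that drop in the late values was not tested. The last time is 26 h in the titles and 28 h in the library codes.

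PHO89 was lowest at 12 h and highest from 18 h on. It had 14.6 and 17.9 TPM at 0 h, 0.90 and 1.05 at 10 h, 0.31 and 0 at 12 h, 5.18 and 1.58 at 16 h, 65.6 and 97.1 at 18 h, 116 and 192 at 20 h, and 30.5 and 59.7 at 26 h. All late values lay above all values up to 16 h. Its time means spanned 7.04 log2 units (adjusted p = 1.2e-20).

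PHO84 had 332 and 311 TPM at 0 h, 268 and 203 at 14 h, 82.3 and 62.0 at 16 h, and 93.2 and 135 at 18 h. PHO3 had 94.7 and 94.6 TPM at 12 h, 77.5 and 56.3 at 14 h, 7.21 and 6.39 at 16 h, and 2.46 and 1.43 at 18 h. Both were lower at 16 h than at 14 h in every library. SPL2 had higher values at 16 h, with 98.0 and 81.7 TPM at 14 h, 215 and 164 at 16 h, and 248 and 301 at 18 h. PHO12 had 394 and 433 TPM at 0 h, 195 and 192 at 10 h, 56.6 and 36.9 at 14 h, and 8.09 and 10.2 at 18 h. PHO11 had 209 and 176 TPM at 0 h and 16.0 and 22.9 at 14 h. PHM6 had 57.1 and 53.6 TPM at 0 h and 5.14 and 1.98 at 16 h, and was listed at 0 in both libraries of 20 h.

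**Figure D5:**
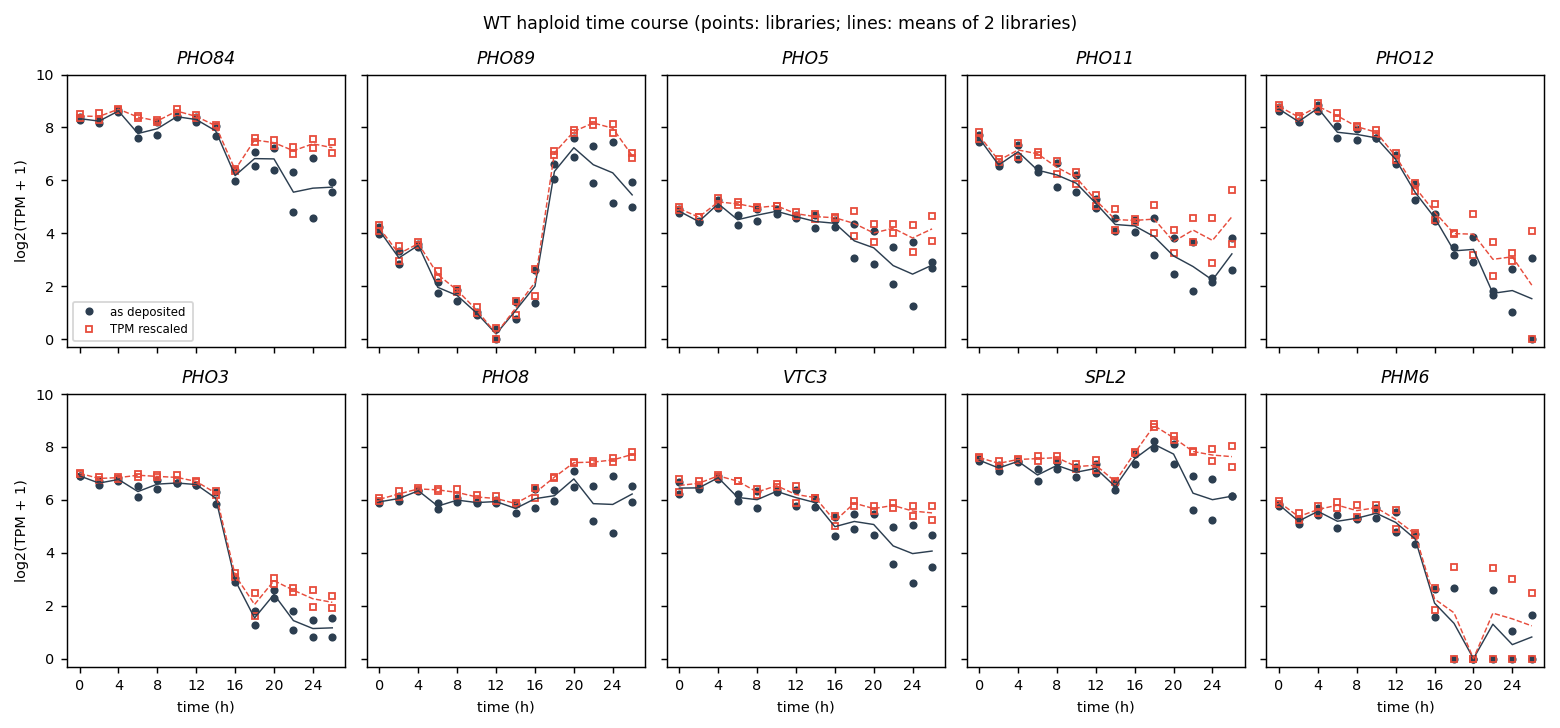
Expression of the 10 genes in WT against hours of culture, as log2(TPM + 1) on the vertical axis. Dark circles are libraries on the deposited scale with a solid line through the time means, and open red squares with a dashed line are the same libraries after rescaling to the full TPM total. PHO89 falls until 12 h and is highest from 18 h on, PHO3 drops between 14 h and 16 h, and the 2 scales part after 16 h.

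The course was tested in 4 steps. Between 0 to 4 h and 10 to 12 h, PHO89 was lower at the later times, at -2.98 ± 0.37 (adjusted p = 6.19e-08) and PHO11 at -1.57 ± 0.37 (adjusted p = 0.00977), with none higher, while 0.349% of all genes were lower and 0.937% higher. The median of the 10 genes was -0.24, against -0.03 over all genes. PHO11 was no longer called without the second library of 10 h (adjusted p = 0.153) or the first of 12 h (adjusted p = 0.0959). At 14 h against 10 to 12 h none of the 10 genes was called in limma, with 2 at an unadjusted p under 0.05. Over all genes 0.202% were lower and 0.808% higher. The fit pools the spread between replicate libraries over all times, and late replicates could lie far apart. PHO84, on the log2 scale, had 4.57 and 6.84 at 24 h, against 8.07 and 7.67 at 14 h. A missing call at 14 h therefore does not show that a gene stayed level. After rescaling, 598 of all genes were higher and 308 lower, against 44 and 11 before, and PHO84 (-0.45) and SPL2 (-0.59) were called lower.

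At 16 h against 14 h, PHO3 was lower, at -3.11 ± 0.49 (adjusted p = 1.28e-06), PHM6 at -2.43 ± 0.63 (adjusted p = 0.00227) and PHO84 at -1.69 ± 0.56 (adjusted p = 0.0179). Over all genes 13.6% were lower and 13.8% higher, and the medians were -0.49 for the 10 genes and 0.23 for all. After rescaling 2061 of all genes were higher and 1240 lower, against 749 and 741 before. PHO3 (-3.10), PHO84 (-1.67) and VTC3 (-0.88) were then lower, SPL2 (1.09), PHO89 (0.98) and PHO8 (0.40) higher, and PHM6 was not called (-2.45, adjusted p = 0.0585). Without the second library of 16 h, 1 gene was called on the deposited scale.

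At 22 to 26 h against 18 to 20 h, 6 of the 10 genes were lower on the deposited scale, as were 63.6% of all genes, with 0.882% of all genes higher. The 10 genes had a median of -0.84 and all genes one of -0.93, so the 10 genes moved about as far as the median gene. SPL2 was lower, at -1.78 ± 0.34 (adjusted p = 0.000152) and PHO12 at -1.67 ± 0.38 (adjusted p = 0.000847). After rescaling, 728 of all genes were higher and 1097 lower, and of the 10 genes SPL2 (-0.86) was lower and PHO8 (0.42) higher. With the libraries under 50% of the full TPM total left out, a choice made after seeing the data, PHO12 (-1.16) and SPL2 (-0.91) were lower and PHO89 (0.75) and PHO8 (0.40) higher. Without the second library of 18 h, 20 h or 22 h, 2, 2 and 3 genes were called.

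Of the 24 further genes tested, 16 changed over the course, against 80.3% of all genes. At 16 h against 14 h the largest differences were in PHO88 (-2.06 ± 0.55), PHO13 (-1.73 ± 0.54), VTC4 (-1.66 ± 0.54) and PHO85 (1.42 ± 0.54). PHM8 was higher at 10 to 12 h than at 0 to 4 h (1.29 ± 0.33, adjusted p = 0.026), and PHO81 was called in none of the 4 steps.

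The genes most like PHO84 across libraries were chosen by the mean Pearson r over 4 sets (exp5 with exp6, the chemostat, the populations and the time course), out of 5281 genes. PHO81 came first (mean r 0.795), then VTC3 (0.775), VTC2 (0.751), VTC1 (0.645) and SAD1 (0.627). PHO12 ranked 19, PHO11 30, SPL2 51, PHO8 569 and PHO3 2691. PHO89 and PHM6 did not pass the filter in every set and were not ranked. PHO5 lay between SPL2 and PHO8, with a mean r of 0.404 and an r of 0.117 in the populations. The likeness of PHO84 and VTC3 was high in exp5 with exp6 (0.917) and the time course (0.966) and lower in the chemostat (0.377). The genes most like PHO5 were VTC1 (0.714), GCR1 (0.685), ERG26 (0.627), ERG24 (0.621) and RNR4 (0.608). Their r with PHO5 lay between 0.886 and 0.950 in the time course and between 0.211 and 0.368 in exp5 with exp6. All r were taken on the deposited scale, and the part of the late drop in the gene total was not tested. These values are descriptions, since the libraries of a set share their preparation.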

How the data were processed

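The deposited table holds log2(TPM + 1) of 6692 genes in 176 libraries, made by the authors with STAR 2.5.3a and RSEM 1.3.0 on the sacCer3 genome, per the submitters' processing notes. Libraries were made with Illumina Truseq kits (exp1 to exp4) or KAPA kits (the others) from RNA of the RNeasy mini kit, per the labels' protocols. Genes were matched to the RefSeq R64 reference, where 5981 of 5989 nuclear genes had the same coordinates, and 5276 to a symbol.

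Groups were taken from the sample titles. In 2 titles, exp4 A18 and chemostat A24, the strain field of the second library names another strain, and the title was kept. The last time is given as 26 h in the titles and as 28 h in the library codes, and the titles were followed. The 3 libraries with NaCl have no control and were not analysed here.

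Models were fitted over all genes with a mean of at least 2 using limma 3.58.1 in R 4.3.3 (trended variance prior, Benjamini-Hochberg adjusted p under 0.05), with experiment as a term for exp1 to exp3. The fits were tested on simulated data. Alternatives were other filters and pseudocounts, libraries rescaled to the full TPM total or centred on their median, chromosomes centred, no variance trend, strain as a random block, a replicate block and leaving out each library. Sequence work used Python 3.11.15, Biopython 1.88, numpy 2.4.6 and pandas 2.3.3, and figures matplotlib 3.10.9. The 10 genes, the 26 further genes of the pathway and the tests were chosen with earlier results of these data known. For each comparison the text names the 10 genes and, of the further genes, PHO4, PHO81 and at most 4 with the largest called differences.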

Additional observations from a re-analysis of the deposited data

Results flagged for a closer look

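The aneuploid difference of the populations was flagged because the test of the difference between the 2 protocols passed. Under the Tsai protocol minus the dilution protocol it was 3.13 for PHO11, 2.63 for PHO12, 2.22 for PHO89, 2.13 for PHO3, 1.96 for PHO5, 1.04 for VTC3, 0.87 for PHO84 and 0.83 for PHM6, on the log2 scale.

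The aneuploid difference from 2N was flagged in the same way between the chemostat and rich medium, at -1.09 for PHO3 and -1.79 for PHO11. PHO11 was at the floor in batch culture and entered the fit only through the chemostat, so its value cannot show a different aneuploid effect between media. The call of PHO3 was lost without either library of 2N in the chemostat. The kit and the medium cannot be told apart there. A test for a library far from the others of its group could be made for 1 group, the 4 libraries of 2N in exp1, and found none among the 10 genes.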

How the results depend on the processing

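Counts of the 10 genes called are given here with their alternatives, and the cause was not tested unless a value is named. With strain as a random block, 0 genes were called in batch culture (against 3) and 0 in the chemostat (against 8). In the chemostat 5 were called after centring libraries and 4 after centring chromosomes, which also left 28 of the 44 pairs of gene and strain. The chemostat minus batch difference gave 1 gene with a filter of 4, a pseudocount of 0.1 or rescaling and 9 with a pseudocount of 10, where VTC3 turned to -0.47. Only 4 of the 10 genes passed the filter in batch culture as well. Calls of the others largely restate the chemostat difference and cannot compare the media. In exp5 and exp6, 4 genes each were called with a filter of 4, which tests fewer genes. At 14 h, 1 was called with a filter of 4 or a pseudocount of 10, 2 after rescaling and 3 after centring. At 16 h, 6 were called after rescaling or centring, and at 22 to 26 h, 2 after either. Directions turned for PHO3 in the chemostat against rich medium with A38 alone (0.0765), for PHO8 in the Tsai minus dilution difference after centring (0.16), and at 22 to 26 h for PHO8 after rescaling (0.42), for PHO5 (0.04), PHO3 (0.21) and PHO8 (0.44) after centring, and for PHO89 (0.75), PHO5 (0.15), PHO8 (0.40) and VTC3 (0.0512) without libraries under 50% of the full TPM total.

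Leaving out 1 library at a time gave 3 to 3 genes in batch culture and 20 to 23 pairs by strain there. It gave 2 to 9 genes in the chemostat and 23 to 47 pairs by strain there. In the chemostat against rich medium the 8 genes that passed the filter in both were called each time. The chemostat minus batch difference gave 0 to 2, where only 4 genes passed the filter in batch culture as well. Leaving out libraries gave 7 to 9 in exp5, 8 to 8 in exp6, 10 to 10 for both aneuploid against euploid comparisons, 8 to 8 for their difference, and 9 to 10 for each euploid population against WT. In the time course it gave 9 to 9 for any change, 1 to 3 at 10 to 12 h, 0 to 1 at 14 h, 1 to 4 at 16 h and 2 to 9 at 22 to 26 h. Same-numbered libraries did not deviate together at the median (correlation -0.040 in the chemostat, -0.019 in the populations, -0.009 in batch culture). In the chemostat single pairs of groups ranged from -0.584 to 0.483, so a median cannot exclude that some libraries are paired. With the replicate block 8 genes were called in the chemostat, 3 in batch culture and 10 in each aneuploid against euploid comparison, as without it. Read depth is unknown, and the chemostat comparison rests on 2 libraries of 2N.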
